A study of Mus musculus with 4 samples.

Results

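Striatal-type inhibitory neurons of the developing mouse cerebral cortex were 203 of the 7210 single cells that passed the cell filter. They were chosen by counts of named transcripts in each cell, in both genotypes and at both ages. A cell had to hold at least 2 counts over the GABAergic transcripts Gad1, Gad2 and Dlx6os1, and at least 3 over Foxp1, Foxp2, Isl1, Ebf1 and Six3, 5 transcription factors of the striatal lineage. It had to hold 0 counts of Lhx6 and of Sp8, fewer than 3 of Zic1 and Zic4 together, at most 1 of the projection neuron factor Neurod6 and at most 2 over the cell cycle genes Mki67, Top2a and Cenpf. These 16 genes selected the cells, so their levels are given as a description and none of them was tested. Transcripts that travel with them in the same cells come in with the rule, and the other genes are tested with that limit.

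The 4 libraries came from cerebral cortex of 4 mice. The first was a P0 mouse lacking TSK (P0 KO), P0 being the day of birth, and the second a P0 wild-type mouse (P0 WT). The third was an embryo at E14.5 labelled TSK knockout (E14.5 KO) and the fourth an E14.5 wild-type embryo (E14.5 WT). TSK is Tsukushi, the product of Tsku, a secreted small leucine-rich proteoglycan. Each group is 1 animal, so a difference between genotypes is a difference between 2 animals, its interval covers counting error only, and it carries no p-value. Strain and allele are not named in the labels.

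Tsku had 0 counts in P0 KO and 42 in P0 WT, and 74 counts in the library labelled E14.5 KO and 54 in E14.5 WT. Scaled to the library total over all its cells, it stood at 0 CPM in P0 KO and 6.95 CPM in P0 WT, and at 5.14 CPM in the library labelled E14.5 KO and 9.63 CPM in E14.5 WT. The counts thus go against the label of that E14.5 library, which also differed in sex from E14.5 WT, with 6707 counts of Xist there and 3 in E14.5 WT. The libraries held 5607941 to 14423600 counts. The striatal-type neurons had a median of 3574.5 counts per cell in P0 KO, 4483.5 in P0 WT, 2728 in the library labelled E14.5 KO and 5750.5 in E14.5 WT. Pairs of libraries shared at most 2 cell barcodes, and no shared barcode was a striatal-type neuron.

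Inhibitory neurons of the forebrain arise in the ganglionic eminences below the cortex. The lateral eminence gives rise to the spiny projection neurons of the striatum, which signal through dopamine receptors and respond to retinoic acid, and to cells that settle in the olfactory bulb and the amygdala. The medial and caudal eminences give rise to interneurons that migrate into the cortex, many of which carry Lhx6, and Sp8 marks cells of the caudal and dorsal lateral eminence and of the olfactory bulb. Among the genes used here, Isl1 and Ebf1 are known for the direct pathway neurons of the striatum, which express Drd1 and the peptide gene Tac1. Six3 and Sp9 are known for the indirect pathway neurons, which express Drd2, Adora2a and Penk.

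The response of this lineage to retinoic acid is the one place where these data can be set beside a regulatory sequence, because Rarb, the retinoic acid receptor beta gene, was counted in striatal-type neurons and in none of the Lhx6 or Sp8 cells. The 160 bases before its start site, at chr14:16575477-16575636 on the minus strand of GRCm38.p6 (RefSeq), are shown 5′ to 3′ because they hold the paired repeat for which the gene's response to retinoic acid is known. The capitals mark the motif's 2 repeats, GGTTCA and AGTTCA, which must be 5 bases apart and here lie from -53 to -37 relative to the start site.
Rarb: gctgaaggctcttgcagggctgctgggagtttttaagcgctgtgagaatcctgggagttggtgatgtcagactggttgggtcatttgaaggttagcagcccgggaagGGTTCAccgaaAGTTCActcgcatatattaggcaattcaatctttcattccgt
The motif was written in the letters of the Rarb repeats, so the match in Rarb was fixed in advance. On both strands, 2 of 32851 promoters of 300 bases (0.00609%) hold this motif. It was not found in these letters in the promoter windows of Rxrg, Crabp1 or Cyp26b1, and pairs in other letters were not searched. The match describes the sequence and was not measured as a site here.

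The share of cells that met the rule differed between the libraries in the order of age. It was 0.557% in P0 KO (8 of 1436 cells, exact binomial 95% interval 0.241 to 1.09) and 1.91% in P0 WT (20 of 1047, 1.17 to 2.93). It was 3.34% in the library labelled E14.5 KO (137 of 4107, 2.81 to 3.93) and 6.13% in E14.5 WT (38 of 620, 4.37 to 8.32). P0 KO over P0 WT gave a log2 ratio of -1.78 (95% interval -3.17 to -0.53), and the E14.5 pair gave -0.88 (-1.41 to -0.32). P0 lay below E14.5 in both label groups, with -2.58 (-3.82 to -1.56) in KO and -1.68 (-2.54 to -0.86) in WT.

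Part of these differences moved with depth. With every cell thinned to 1500 counts the shares were 0.139% in P0 KO (2 cells), 0.860% in P0 WT (9 cells), 1.99% in the library labelled E14.5 KO and 2.42% in E14.5 WT, out of the 1435, 1046, 3966 and 619 cells that reached that depth. The E14.5 ratio was then -0.28 (-1.09 to 0.62), an interval that holds 0, and the P0 ratio -2.63 (-5.88 to -0.35). Of all postmitotic inhibitory neurons, the striatal-type cells made up 7.41% in P0 KO (3.25 to 14.1) and 16% in P0 WT (10.1 to 23.6), with a log2 ratio of -1.11 whose interval reached from -2.50 to 0.13. With that denominator and thinned cells the P0 ratio was -2.06 (-5.31 to 0.21) and the ratio of P0 WT over E14.5 WT was -1.09 (-2.46 to 0.20), and both intervals hold 0. At E14.5 they made up 23.0% in the library labelled E14.5 KO (19.7 to 26.6) and 38% in E14.5 WT (28.5 to 48.3). The Sp8 condition alone removed 6 of 14 cells in P0 KO and 1 of 22 in P0 WT. Without the Lhx6, Sp8 and Zic conditions, an alternative chosen after seeing the data, P0 KO had 0.975% and P0 WT 2.29%, a log2 ratio of -1.23 (-2.30 to -0.22).

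**Figure D1:**
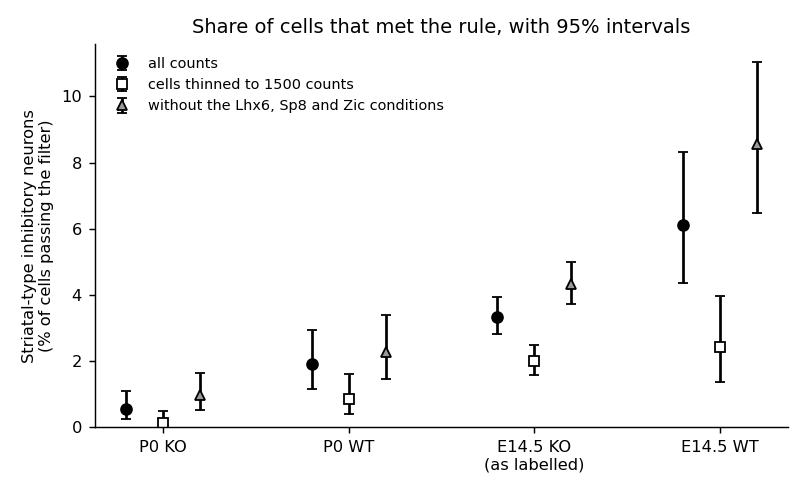
Share of cells that met the rule (y axis, % of cells passing the filter) in each library (x axis). Points carry exact binomial 95% intervals; circles use every count, squares cells thinned to 1500 counts, and triangles the rule without its Lhx6, Sp8 and Zic conditions. P0 KO is lowest under each of the 3 settings, from 0.139% to 0.975%, and the E14.5 libraries draw together after thinning, at 1.99% and 2.42%.

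Cells just inside the threshold were few at P0. A sum of exactly 3 over the 5 striatal factors was seen in 1 cell of P0 KO, 1 of P0 WT, 14 of the library labelled E14.5 KO and 5 of E14.5 WT. A sum of 2, just outside, was seen in 2, 2, 19 and 0 cells that met every other condition. In the library labelled E14.5 KO, Bcl11b, a factor of striatal and deep cortical neurons that the rule did not use, stood at 3140 CPM (the summed counts of the cells, scaled to a common total) in the cells with a sum of 3 and at 1378 CPM in those with a sum of 2. In E14.5 WT the 5 cells with a sum of 3 stood at 858 CPM of Bcl11b and 1035 CPM of Meis2, below the 3131 and 3535 CPM over all striatal-type neurons of that library.

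The 5 striatal factors were held by different cells at the 2 ages. Isl1 or Ebf1 was counted in 1 of 8 cells of P0 KO (12.5%, 0.316 to 52.7) and 1 of 20 of P0 WT (5%, 0.127 to 24.9). At E14.5 it was counted in 113 of 137 cells in the library labelled E14.5 KO (82.5%, 75.1 to 88.4) and 22 of 38 of E14.5 WT (57.9%, 40.8 to 73.7). Thinning to 1500 counts left these at 12.5%, 5%, 78.2% and 52.6%. In projection neurons that should lack it, Isl1 was counted in 0%, 0%, 1.5% and 0.717% of cells in the same order of libraries, at medians of 5204, 4862.5, 3065.5 and 7375 counts per cell. Six3 was counted in 2 of 8 cells of P0 KO, 10 of 20 of P0 WT, 33 of 137 of the library labelled E14.5 KO and 17 of 38 of E14.5 WT. Most E14.5 cells thus held Isl1 or Ebf1, and 1 cell in each P0 library did.

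Foxp1 and Foxp2, paralogous forkhead factors that both mark striatal neurons, stood in separate cells at P0. Of the 8 cells in P0 KO, 2 held Foxp1 without Foxp2, 5 held Foxp2 without Foxp1 and 1 held both. Of the 20 in P0 WT, 9 held Foxp1 alone of the pair, 9 held Foxp2 alone, 1 held both and 1 neither. In the library labelled E14.5 KO 47 of 137 cells held both (34.3%, 26.4 to 42.9), and in E14.5 WT 14 of 38 did (36.8%, 21.8 to 54.0). After thinning, both were counted in 12.5% of cells in P0 KO, 5% in P0 WT, 24.8% in the library labelled E14.5 KO and 13.2% in E14.5 WT, and the intervals of the 4 shares overlapped. Foxp1 is also expressed by cortical projection neurons, where 14.7% to 47.7% of cells held it.

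**Figure D2:**
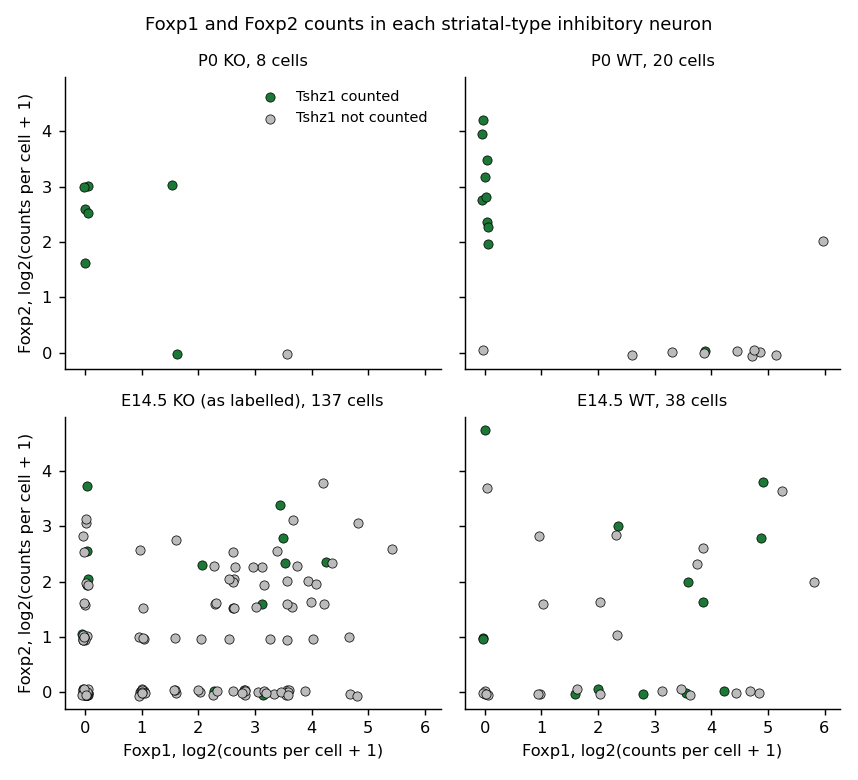
Counts of Foxp1 (x axis) and Foxp2 (y axis), each as log2(counts per cell + 1), in every striatal-type inhibitory neuron of the 4 libraries; points are shifted slightly at random so that equal values can be seen. Green cells hold at least 1 count of Tshz1. At P0 the Foxp2 cells lie along the y axis and nearly all hold Tshz1, and the Foxp1 cells lie along the x axis, whereas 47 and 14 cells of the E14.5 libraries hold both factors.

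The P0 cells on either side of this split carried different transcripts. The split was chosen after the values were seen, and what follows is a description with no test. Tshz1, a zinc finger factor known from olfactory bulb and intercalated amygdala neurons, was counted in 5 of 5 Foxp2 cells of P0 KO and 9 of 9 of P0 WT, at 1776 and 2594 CPM. Foxp1 cells held it in 1 of 2 and 1 of 9 cells, at 295 and 43.6 CPM. Meis2, a homeobox factor of lateral eminence derivatives, stood at 4052 and 4508 CPM in the Foxp2 cells of P0 KO and P0 WT, against 884 and 2531 CPM in their Foxp1 cells. Pbx3, another homeobox factor, had 57 counts in the 9 Foxp2 cells of P0 WT and 3 counts in the 9 Foxp1 cells, a log2 ratio of 4.46 (2.84 to 6.77). Over the same 18 cells Nfib stood at 3.79 (2.49 to 5.47), Nfix at 4.11 (2.14 to 7.22) and Erbb4, the neuregulin receptor, at 35 counts against 0.

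Foxp1 cells of P0 WT held several transcripts of striatal projection neurons. The dopamine receptor gene Drd2 had 9 counts in 5 of the 9 Foxp1 cells and 0 counts in the 9 Foxp2 cells. Adora2a, the adenosine receptor gene of the same neurons, had 10 counts in 5 Foxp1 cells and 0 in Foxp2 cells. Zfp503, which encodes the striatal zinc finger protein NOLZ1, had 11 counts in 3 Foxp1 cells and 0 in Foxp2 cells. Bcl11b stood at 4320 CPM in Foxp1 cells and 1259 CPM in Foxp2 cells. Mef2c (50 counts against 0), Id4 (61 against 0) and Egr1 (58 against 6) were likewise counted mostly in the Foxp1 cells. The Foxp1 cells of P0 WT thus held these markers of the label striatal-type. Not all of the label's markers went this way. Meis2 and Pbx3, also counted below among the genes of striatal projection neurons, were higher in the Foxp2 cells. The 5 Foxp2 cells of P0 KO and the 9 of P0 WT held no count of Drd2, Adora2a, Zfp503 or Rarb. Drd1 had 1 and 2 counts there, and 0 in the Foxp1 cells of P0 WT. Those 4 genes without a count do not bear out the label for the Foxp2 cells, which are called by their leading genes, Foxp2 and Tshz1. None of the 8 cells of P0 KO held Drd2, Adora2a or Zfp503. At E14.5 Drd2 likewise had 0 counts in the cells with Foxp2 alone of the pair, whereas Zfp503 was counted in 11 of 21 cells in the library labelled E14.5 KO and 1 of 4 of E14.5 WT.

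**Figure D3:**
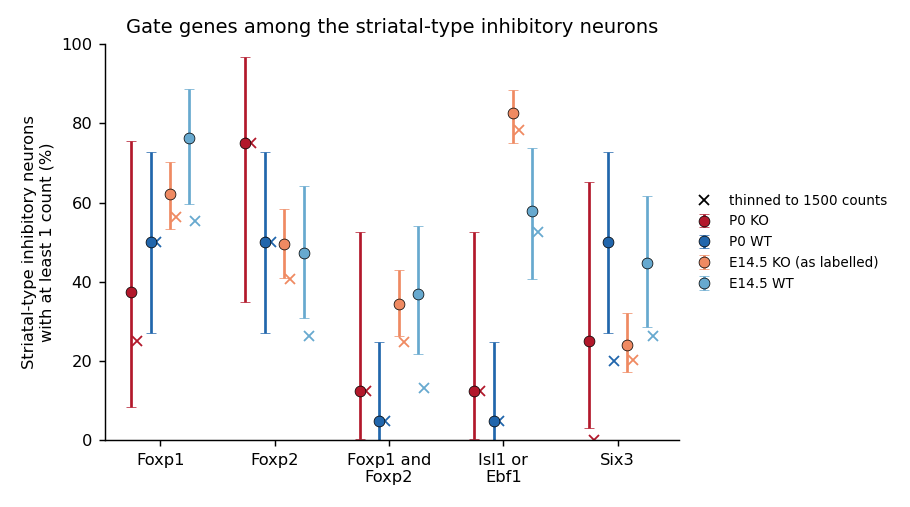
Percent of striatal-type inhibitory neurons (y axis) with at least 1 count of each gene or pair of genes that chose them (x axis), by library. Circles with bars are exact binomial 95% intervals and crosses are the same cells thinned to 1500 counts. Isl1 or Ebf1 is counted in 82.5% and 57.9% of cells at E14.5 and in 12.5% and 5% at P0.

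Genes outside the rule were compared between the striatal-type neurons and 373 inhibitory neurons that held Lhx6 or Sp8, passed the same filters and had fewer than 3 counts over the 5 striatal factors. Striatal-type neurons were higher in transcripts of striatal projection neurons and of the retinoid pathway, and lower in transcripts of cortical interneurons and in several genes of the Dlx network. With counts summed per library and library as a block, edgeR's quasi-likelihood test called 311 of 6509 genes at a Benjamini-Hochberg adjusted p under 0.05 (4.78%), 146 higher (2.24%) and 165 lower (2.53%). Of the 311, 251 went the same way in every library. The count was 181 without P0 WT, 184 without the library labelled E14.5 KO and 119 without the block. DESeq2 called 184, 183 of them the same genes, and did not call Rarb, Crabp1, Drd2, Adora2a, Tshz2, Dlx5 or Dlx6.

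Of 22 genes of striatal projection neurons 15 could be tested, and 10 were higher, 1 lower and 4 not called, with a median log2 difference of 2.10 against -0.016 over all genes tested. Meis2 stood at 2969, 3557, 3191 and 3535 CPM in striatal-type neurons of P0 KO, P0 WT, the library labelled E14.5 KO and E14.5 WT, in the order kept below, against 989, 804, 442 and 179 CPM in Lhx6 or Sp8 cells, a log2 difference of 2.60 ± 0.27 (SE). Bcl11b stood at 1358, 3159, 3321 and 3131 CPM, against 586, 801, 1302 and 1235 CPM, a difference of 1.45 ± 0.15. Zfp503 (4.91), Rarb (7.14, a fitted value against 0 counts in Lhx6 or Sp8 cells), Rxrg (5.12), Arpp21 (2.35), Pbx3 (2.10), Meis1 (1.56) and Pde10a (1.39), a phosphodiesterase of spiny neurons, were also higher on the log2 scale. Against the Sp8 cells alone Pbx3 (0.96) and Meis1 (0.24) were not called, and without P0 WT neither Meis1, Pde10a nor Arpp21 was. Foxo1, Cnr1, Ptpn5 and Ikzf1 did not pass the test.

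Mef2c, an activity-linked factor of interneurons and projection neurons, was the one gene of the list that was lower. It stood at 31.6, 562, 174 and 196 CPM in striatal-type neurons, against 809, 1671, 423 and 480 CPM in Lhx6 or Sp8 cells, a log2 difference of -1.58 ± 0.22. This direction depended on the comparison cells. Against the Sp8 cells alone Mef2c stood at 1.25 with an adjusted p of 0.19 in edgeR's quasi-likelihood test.

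The retinoid genes formed the group with the highest median, 3.35 over 6 tested genes of 11, of which 5 were higher against a background of 2.24%. Among them were the receptor genes Rarb and Rxrg, the binding protein gene Crabp1 (2.51 ± 0.72) and Cyp26b1 (4.2 ± 1.08), whose product degrades retinoic acid. Cyp26b1 rested on few cells. It had 7 counts in 1 cell of P0 WT, 3 in 1 cell of the library labelled E14.5 KO and 17 in 2 cells of E14.5 WT. P0 KO had 0 counts of it. Rxrb, a broadly expressed receptor gene, was not called (-0.18 ± 0.30). Rarb, whose promoter is printed above, had 0 counts in P0 KO, 30.7 CPM in P0 WT, 116 in the library labelled E14.5 KO and 102 in E14.5 WT.

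Dopamine and cAMP signalling genes were higher where they were called, in 4 of 8 tested genes of 15, against a background of 2.24%. Pde10a and Arpp21 are on this list and also on that of striatal projection neurons above. Gnal, the G protein subunit that couples dopamine receptors to adenylyl cyclase, stood at 63.2, 296, 164 and 106 CPM, against 22.6, 52.7, 16.4 and 5.10 CPM in Lhx6 or Sp8 cells, a difference of 2.79 ± 0.34. Drd2 had 0 counts in P0 KO, 102 CPM in P0 WT, 16.6 in the library labelled E14.5 KO and 40.8 in E14.5 WT, and 0 counts in the Lhx6 or Sp8 cells of all 4. Adora2a was called as well, at 0, 112, 7.13 and 40.8 CPM against 0 in each comparison group. Drd1 was counted in 1, 1, 6 and 3 striatal-type neurons, and Pdyn in none. Tac1, the precursor of substance P, had 61 counts in 15 of the 137 cells in the library labelled E14.5 KO (10.9%) and 0 counts in the striatal-type neurons of the other libraries. In projection neurons of that library Tac1 was counted in 0.0716% of cells.

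**Figure D4:**
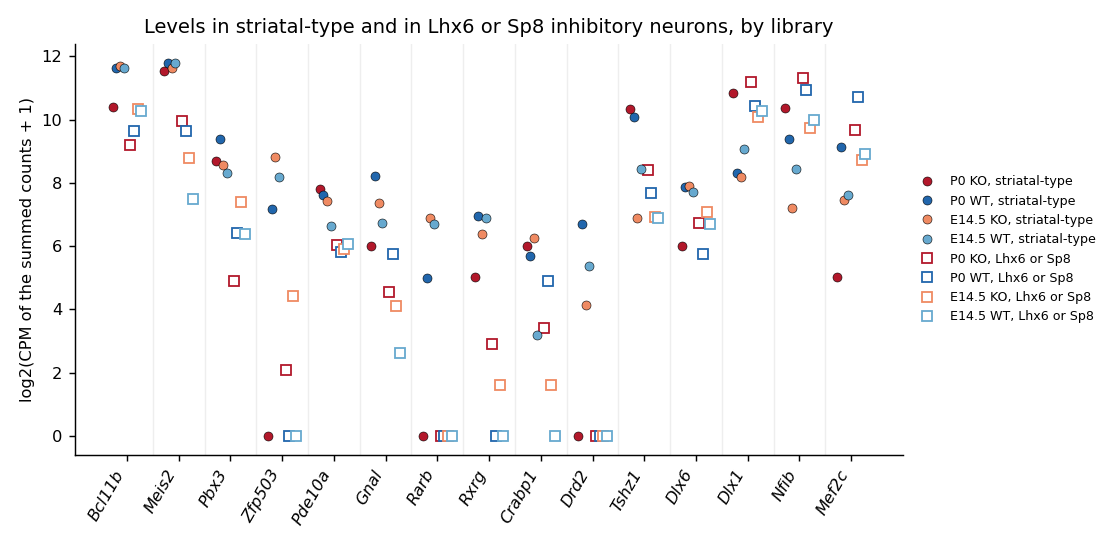
Level of 15 genes as log2(CPM + 1) of the summed counts (y axis) in striatal-type neurons (filled circles) and in Lhx6 or Sp8 inhibitory neurons (open squares) of each library, coloured by library. Circles lie above squares in all 4 libraries for Meis2, Bcl11b, Pbx3 and Gnal, and below them for Dlx1, Nfib and Mef2c; Mef2c lay above its level in Sp8 cells alone.

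Of 8 Dlx network genes, which specify GABAergic neurons, 6 were lower and 1 higher. Dlx1 stood at 1832, 317, 292 and 535 CPM in striatal-type neurons, against 2323, 1384, 1082 and 1225 CPM in Lhx6 or Sp8 cells, a log2 difference of -1.42 ± 0.20. Dlx2 (-2.16), Dlx5 (-0.89) and Etv1 (-5.06) were lower too, Dlx6 was higher (1.01 ± 0.28), and Slc32a1, the vesicular GABA transporter gene, was not called (-0.66 ± 0.24). Dlx5 and Dlx6 were not called without P0 WT, without the library labelled E14.5 KO or without E14.5 WT. All 9 tested medial eminence genes were lower, among them Sst (-6.77), Maf (-5.56) and Sox6 (-4.52), as were 4 of 5 caudal eminence genes. The condition of 0 counts of Lhx6 and Sp8 chose cells against these lineages, so that direction follows from the rule.

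Other families moved in both directions. The 3 tested NFI genes, transcription factors of late neurogenesis and gliogenesis, were lower, with Nfib at -1.71 ± 0.18, Nfia at -1.60 ± 0.25 and Nfix at -1.45 ± 0.20. Of 20 tested guidance genes Ephb1 (3.71 ± 0.36), Epha7 (1.46), Robo1 (1.77) and Robo2 (0.85) were higher and Epha5 was lower (-2.12 ± 0.24). Of 19 tested genes of synapse and maturation 5 were higher, including the neurofilament genes Nefl (4.44) and Nefm (1.89), and 2 were lower, Nrxn3 (-0.84) and Camk2n1 (-1.08). Of 8 glutamate receptor genes Gria1 (-1.44) and Gria4 (-3.79) were lower, and of 7 GABA receptor genes none was called. Of the 14 tested genes of cholesterol synthesis none was called, and the list had a median of 0.57. Tshz1 (1.47 ± 0.27) and Tshz2 (1.78 ± 0.40) were higher. Neither was called against the Sp8 cells alone (1.15 and 1.37), Tshz1 was not called without P0 WT (1.08), and Tshz2 was not called without E14.5 WT (1.38).

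Markers of other cells were summed in the striatal-type neurons. The 8 projection neuron markers summed to 0 CPM in P0 KO, 30.7 in P0 WT, 45.2 in the library labelled E14.5 KO and 8.16 in E14.5 WT, against 2754 to 2952 CPM in projection neurons. The 6 cholinergic markers had 0 counts in every library. Radial glia markers summed to 726 CPM in P0 KO, 429 in P0 WT, 397 in the library labelled E14.5 KO and 943 in E14.5 WT, with 4, 4, 6 and 6 of 8 detected, and Sox2 alone made 569, 358, 216 and 580 CPM. Haemoglobin transcripts, which belong to red blood cells and share reads among near-identical copies, summed to 347, 194, 411 and 155 CPM. Oligodendrocyte lineage markers summed to 284 CPM in P0 KO, against 20.4 in P0 WT, and to 2.38 in the library labelled E14.5 KO, against 4.08 in E14.5 WT. The 3 choroid plexus markers had 0 counts in both P0 libraries and summed to 183 CPM in the library labelled E14.5 KO and 69.4 CPM in E14.5 WT, of which Ttr made 169 and 61.2 CPM. The part of these transcripts in the results was not tested.

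Among all genes tested outside the rule, those with the largest differences in the same direction in every library were chosen by rank. Higher were P2ry1 (5.64), a purinergic receptor gene, Six3os1 (5.46), whose locus overlaps Six3 so that reads of the pair may not be told apart, the activity-regulated Npas4 (4.88) and Egr3 (4.55), Foxp4 (4.21), Pou3f1 (3.86) and Zfhx3 (3.76). Egr3 stood at 253, 286, 71.3 and 24.5 CPM, against 12.9, 2.64, 2.05 and 10.2 CPM in Lhx6 or Sp8 cells, and the other 8 tested immediate early genes lay between -0.76 and 0.92 with none called. Lower were Thbs1, Id3, Parm1 and Trpc4, each with 0 counts in striatal-type neurons and 9.46-fold to 18.0-fold or more above the floor in Lhx6 or Sp8 cells, and Dpp10 (-5.84), Nxph1 (-5.78) and Zbtb16 (-5.29).

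Striatal-type neurons with Isl1 or Ebf1 and no Six3 were then compared with those with Six3 and neither Isl1 nor Ebf1, which asks whether the known direct and indirect pathway genes follow these factors. The first kind numbered 1 cell in P0 KO, 1 in P0 WT, 96 in the library labelled E14.5 KO and 15 in E14.5 WT, and the second 2, 10, 16 and 10. Of the Six3 cells, both in P0 KO and 6 of the 10 in P0 WT held Foxp2 and no Foxp1, the kind described above with Tshz1. The part of that makeup in the P0 values was not tested. The Six3 cells were higher in Tshz1, in the indirect pathway genes Sp9 and Grik3, and in the glutamate receptor gene Gria1. They were also higher in the radial glia marker Sox2. edgeR's quasi-likelihood test with library as a block called 18 of 1647 genes (1.09%) at an adjusted p under 0.05. In the Isl1 or Ebf1 cells 5 were higher (0.304%) and 13 lower (0.789%). Of the 18, 10 went the same way in every library. The single Isl1 or Ebf1 cells of P0 KO and P0 WT held 7380 and 2274 counts. Each of those 10 that was lower had 0 counts in that P0 WT cell, so its agreement there does not count as replication. Without the library labelled E14.5 KO the test called 1 gene, Tshz1, and without E14.5 WT 2 genes, Tshz1 and Gria1. DESeq2 called 4.

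Sp9 stood at 59.0 CPM in Isl1 or Ebf1 cells against 829 CPM in Six3 cells in the library labelled E14.5 KO, and at 127 against 453 CPM in E14.5 WT. Its log2 difference was -2.72 ± 0.49. Gria1 stood at 72.1 against 740 CPM and at 25.5 against 368 CPM in the same libraries (-3.50 ± 0.54), and Tshz1 at 52.5 against 717 CPM and at 38.2 against 736 CPM (-3.70 ± 0.49). Sox2 stood at 65.6 against 1098 CPM and at 102 against 1656 CPM (-3.52 ± 0.47), but at 678 against 296 CPM in P0 KO, and its part in the other differences was not tested. Enc1 (-1.60), Sox2ot (-2.48), Snhg11 (-4.21) and Pnma8b (-1.55) were lower too, as was Six3os1. Pou3f2, a POU factor, was higher in the Isl1 or Ebf1 cells (2.79 ± 0.73). Syt4 and Nefm were called higher there, with 0 counts in the single Isl1 or Ebf1 cell of P0 WT. Bcl11b (-0.11), Pbx3 (0.25), Meis2 (-0.97) and Zfp503 (1.23) did not pass. Drd2 and Tac1 were too low to be tested. At E14.5 Drd2 had 0 counts in the 96 and 15 Isl1 or Ebf1 cells and 2 and 4 counts in the 16 and 10 Six3 cells, and Tac1 had 42 and 0 counts in the Isl1 or Ebf1 cells and 0 in Six3 cells.

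The contrast of age has 2 libraries on each side. In the striatal-type neurons edgeR's quasi-likelihood test called 0 of 4193 genes between P0 and E14.5 (0%), with 323 at an unadjusted p under 0.05 and a smallest adjusted p of 0.053, and DESeq2 called 5. Values alone are therefore given. Nfix stood at 569 and 327 CPM at P0, against 33.3 and 61.2 CPM at E14.5, KO before WT at each age. Erbb4 stood at 632 and 358 CPM at P0, against 38.0 and 49.0 CPM at E14.5, and Tshz1 at 1295 and 1073 CPM, against 116 and 347 CPM. Igf2bp3 and Igf2bp1, which encode RNA-binding proteins of early development, had 0 counts at P0 and stood at 97.5 and 85.7 CPM and at 76.1 and 61.2 CPM at E14.5. Syt4 stood at 31.6 and 20.4 CPM at P0, against 304 and 229 CPM at E14.5. The P0 and E14.5 values of these genes did not overlap, as was the case for 40.1% of the 4193 genes tested. The share of cells with Isl1 or Ebf1 also differed between the ages in the same libraries. The part of that share in these values was not tested.

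The change with age differed between striatal-type neurons and the Lhx6 or Sp8 cells for 8 of 6509 genes (0.123%) in edgeR's quasi-likelihood test of the interaction, 3 where the P0 minus E14.5 difference was higher in striatal-type neurons than in Lhx6 or Sp8 cells (0.0461%) and 5 where it was lower (0.0768%). Erbb4 showed the lowest adjusted p of 0.00037. It stood at 632 and 358 CPM at P0 against 38.0 and 49.0 CPM at E14.5 in striatal-type neurons, while Lhx6 or Sp8 cells held 509 and 559 CPM at P0 and 524 and 704 CPM at E14.5. In P0 WT all 35 of its counts in striatal-type neurons lay in Foxp2 cells, and the share of cells with Isl1 or Ebf1 differed between the ages as given above. The part of these differences in cell makeup was not tested. The genes called also included Enc1, Pcdh19, Ccnd2, Rbfox1, Cnr1 and Cntn2. Leaving out P0 KO gave 22 calls and leaving out P0 WT 32.

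Between P0 KO and P0 WT, Mef2c, Id4, Zfhx3 and Bcl11b had lower CPM in the 8 cells of P0 KO than in the 20 of P0 WT that met the rule, and Dlx1, Tcf4 and Pak3 had higher CPM. Over 825 genes with at least 30 counts, 125 lay past 2-fold (15.2%), 28 higher (3.39%) and 97 lower (11.8%) in P0 KO, with a median log2 ratio of -0.14, and 119 intervals excluded 0 (14.4%). With TMM scaling the median was -0.44 and the split 13 higher and 155 lower. The sums came from 8 and 20 cells. Mef2c had 1 count in P0 KO and 55 counts in P0 WT, or 31.6 and 562 CPM, a log2 ratio of -4.15 (-9.48 to -1.62). Id4 stood at 158 and 910 CPM (-2.53, -4.18 to -1.25), Epha4, a guidance receptor gene of striatal matrix, at 253 and 797 CPM (-1.66, -2.92 to -0.61), Gnal at 63.2 and 296 CPM (-2.23, -5.34 to -0.25), and Bcl11b at 1358 and 3159 CPM (-1.22, -1.71 to -0.75). Prpf19, Ank2, Zfhx3, Hmgcs1, Pdzd4, Spin1 and Mir124-2hg were the others among the 10 lowest.

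Mef2c, Id4, Zfhx3, Epha4 and Bcl11b were also higher in the Foxp1 than in the Foxp2 cells within P0 WT. Cells with Foxp2 alone of the pair were 5 of 8 in P0 KO and 9 of 20 in P0 WT, and the part of that mixture in the ratios was not tested. Within those Foxp2 cells Bcl11b stood at 1332 CPM in P0 KO and 1259 CPM in P0 WT, a log2 ratio of 0.08 (-0.69 to 0.81), and Meis2 at 4052 and 4508 CPM (-0.15, -0.57 to 0.25). Mef2c had 0 counts in both, and Id4 had 4 counts in P0 KO and 0 in P0 WT. Pbx3 stood at 611 and 1436 CPM (-1.23, -2.31 to -0.29), and Spin1 at 111 and 529 CPM (-2.25, -5.39 to -0.22). Higher in the Foxp2 cells of P0 KO were Pak3 (1.72, 0.59 to 2.91), Dlx1 (1.61, 0.50 to 2.76) and Tcf4 (1.52, 0.21 to 2.87). In Lhx6 or Sp8 cells Mef2c was also lower in P0 KO, at 809 against 1671 CPM (-1.05, -1.26 to -0.83). Id4 was higher there, at 467 against 221 CPM (1.08, 0.68 to 1.48). Dlx1 (0.75, 0.58 to 0.91) and Pak3 (0.66, 0.29 to 1.03) were also higher in those cells of P0 KO, as were Nr2f1 (1.12) and Tiam2 (0.92). Hmgcs1 (-1.19), Ank2 (-0.95) and Pdzd4 (-0.94) were also lower there. Tcf4 (0.06), Prpf19 (0.08) and Zfp462 (-0.35) had intervals that hold 0 there.

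The 10 highest genes in P0 KO were Tcf4, Nr2f1, Tnrc6c, Dlx1, Miat, Pak3, Zfp462, Tiam2, Zfp451 and Vezf1. Several rested on 1 cell, which held 7380 of the 31662 counts of the 8 cells. That cell held 27 of 40 counts of Tcf4, 19 of 22 of Nr2f1, 30 of 32 of Tnrc6c, 40 of 58 of Dlx1 and 13 of 21 of Miat, and also 24 of 26 counts of Ccnd2 and 17 of 17 of Sox9. It was also the 1 cell of P0 KO with Ebf1. Without it Tcf4 stood at 1.80 (0.61 to 2.98) in place of 3.04, Dlx1 at 1.23 (0.30 to 2.11) in place of 2.53, Nr2f1 at 0.43 (-2.10 to 2.43) in place of 2.92 and Tnrc6c at -1.08 (-4.23 to 1.00) in place of 2.54. Pak3, a kinase of neuronal cytoskeleton, stood at 2.14 (1.22 to 3.07) without it, with 23 counts in the 7 other cells of P0 KO and 21 in P0 WT.

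**Figure D5:**
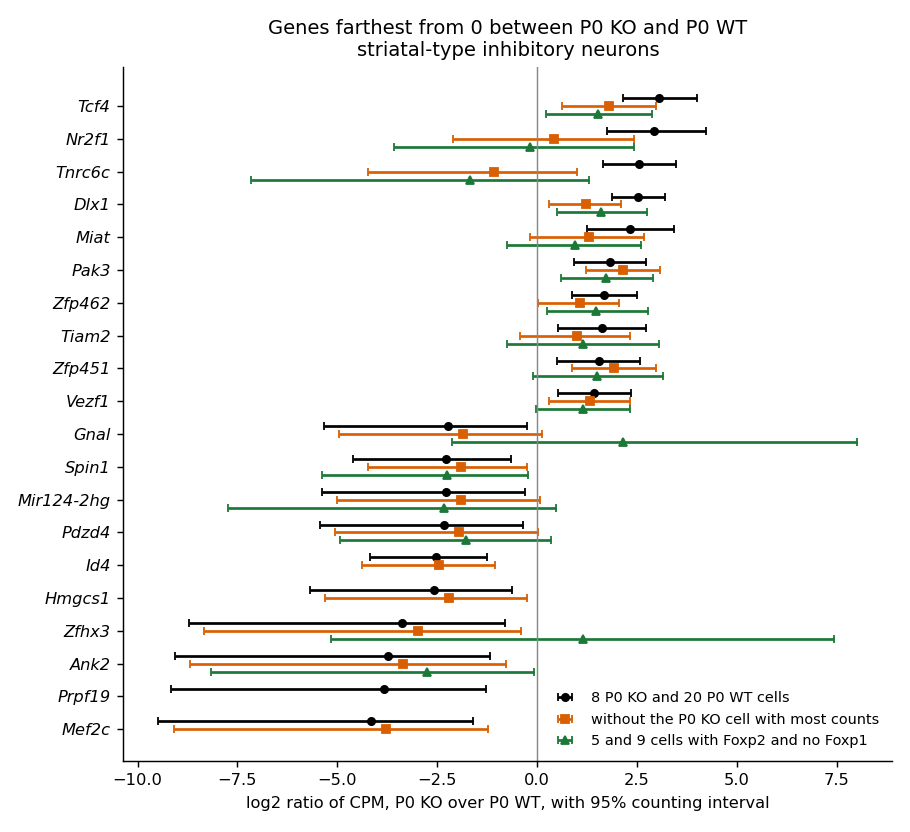
Log2 ratio of CPM, P0 KO over P0 WT (x axis, with 95% counting intervals), for the 10 highest and 10 lowest genes (y axis). Black circles use the 8 and 20 cells, orange squares leave out the P0 KO cell with the most counts, and green triangles use the 5 and 9 cells with Foxp2 and no Foxp1; a ratio is left out where a sum is 0. Tnrc6c and Nr2f1 lose their ratio without that cell, and Gnal and Zfhx3 lie on the other side of 0 among the Foxp2 cells, with intervals that hold 0.

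Between the library labelled E14.5 KO and E14.5 WT, 457 of 4593 genes lay past 2-fold (9.95%), 284 higher (6.18%) and 173 lower (3.77%), with a median of 0.07, and 914 intervals excluded 0 (19.9%). Tac1, a direct pathway transcript, was among the highest, while Drd1 had 7 and 3 counts. Tac1 had 61 counts against 0, at least 3.57 on the log2 scale against a floor of 3 counts, and Zfp521, a zinc finger factor, 61 counts in the labelled KO against 7 in WT (2.34, 1.21 to 3.72). Ephb1 stood at 285 and 85.7 CPM (1.73, 1.06 to 2.48), Robo2 at 887 and 396 CPM (1.16, 0.84 to 1.5) and Zfp503 at 447 and 290 CPM (0.62, 0.22 to 1.04). Tshz1 stood at 116 and 347 CPM (-1.57, -2.11 to -1.05), Sox2 at 216 and 580 CPM (-1.42, -1.82 to -1.03) and Dlx2 at 78.5 and 180 CPM (-1.19, -1.89 to -0.51). Of 14 measured genes of striatal projection neurons 7 lay above and 7 below 0, with a median of -0.001.

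The 2 embryos also differed in the share of cells with Isl1 or Ebf1, at 82.5% and 57.9%. Among the 96 and 15 cells with Isl1 or Ebf1 and no Six3, Tac1 had 42 counts against 0, at least 1.85, and Ephb1 stood at 335 and 76.5 CPM (2.13, 0.96 to 3.61), Robo2 at 1013 and 459 CPM (1.14, 0.64 to 1.68) and Zfp521 at 1.66 (0.21 to 3.59). In those same cells Tshz1 stood at 0.46 (-1.35 to 2.88), Nefm at -0.14 (-0.71 to 0.46) and Zfp503 at -0.11 (-0.60 to 0.41), with intervals that hold 0. Within the 16 and 10 Six3 cells Tshz1 stood at 717 and 736 CPM (-0.04, -0.72 to 0.63). Robo2 was higher in the Six3 cells as well, at 1.25 (0.11 to 2.43).

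The highest genes by rank further included Xist, which follows from the sex of the embryos, Kitl (3.58), Sap30 (3.31), Nbeal1 (3.22), the retinoid binding protein gene Crabp1 (3.22, 32 counts against 2), Tmem158 (3.06), Sybu (2.88), Dlc1 (36 counts against 0) and Wdfy1 (2.57). The lowest were Neurog2, Eomes, Gm4258, Rps28, ENSMUSG00000121500, Atp5me, Rps29, Dlx1as, Erdr1y and Rpl35. In Lhx6 or Sp8 cells of the same libraries Rps28 stood at 98.6 against 801 CPM and Rps29 at 105 against 541 CPM. Rpl35 stood there at 94.5 against 439 CPM, Atp5me at 67.8 against 250 CPM and Wdfy1 at 125 against 20.4 CPM. These differences were thus not particular to striatal-type neurons. Neurog2 and Eomes lay the other way in Lhx6 or Sp8 cells, on 11 counts against 0 and 5 against 0. Tmem158 had 9 counts against 7 there (18.5 against 35.7 CPM), and Kitl was nearly level at 82.1 against 86.7 CPM. Neurog2 and Eomes, factors of excitatory progenitors, had 33 and 28 counts in the striatal-type neurons of E14.5 WT, of which 33 and 27 lay in 1 cell. Ribosomal protein genes, many with near-identical pseudogenes, were below 0 in 70 of 85 cases with a median of -0.54, and between P0 KO and P0 WT in 56 of 71 with a median of -0.34.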

How the data were processed

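Single cells from dissociated cortex were prepared with an Asteria kit, and the authors deposited a table of raw counts for 57126 features in each of 4 libraries, per the labels. The submitters' processing notes list FastQC 0.12.1, Seurat 5, R 4.3.2 and GRCm39; the sources used here do not give the aligner and counter, or say whether molecules or reads were counted. If reads were counted, intervals are too narrow.

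A floor of 500 counts and of 300 genes per cell, and a ceiling of 10% mitochondrial counts, left 7210 of 7270 cells. The rule for the striatal-type neurons, their gene lists and the tests were chosen with earlier results of these data known. The 203 cells were not clustered. No doublet caller was run, and removing the 5% of cells with the most counts in each library was tried in its place. Each library is 1 animal, so p-values measure the spread between these 4 libraries.

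Counts were summed per library and class and tested with edgeR 4.0.16 (TMM, filterByExpr, quasi-likelihood, Benjamini-Hochberg adjusted p under 0.05) in R 4.3.3, with the gate genes left out. DESeq2 1.42.0 was the alternative tool. Single libraries were compared by log2 ratios of CPM with conditional binomial 95% intervals (scipy 1.17.1), for genes with at least 30 counts and a threshold of 2-fold. Shares have exact binomial 95% intervals, and intervals and floors of 3 counts cover counting error only. Named genes were the 10 highest and 10 lowest past the threshold, and the members of the lists. In the comparisons of cell classes those chosen by rank had the same sign in every library. For single libraries the interval had to exclude 0. For the interaction no check of sign between libraries was made. The tests were tried on simulated counts with a log2 change of 2. The comparison with Lhx6 or Sp8 cells recovered 91.96% of 199 changed genes and the age test 43.30% of 194. The interaction recovered 19.37% of 191 and the Isl1 or Ebf1 test 86.67% of 195. The simulated counts had the same dispersion of 0.05 for every gene and no transcripts gathered in single cells. The rates are therefore not the power of the tests on these data.

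Alternatives were other size factors, no filter on low counts, cells thinned to 1500 counts, other thresholds of the rule, other comparison cells and each library left out. The shares without the Lhx6, Sp8 and Zic conditions, the Foxp1 and Foxp2 subsets and the Isl1 or Ebf1 and Six3 strata of single genes were examined after seeing the data. Promoter sequence is from RefSeq on GRCm38.p6, another build than that of the files, and was matched by gene symbol for Rarb, Rxrg, Crabp1 and Cyp26b1. Some genes are not reported here, though counts over lists and tests include them.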

Additional observations from a re-analysis of the deposited data

Results flagged for a closer look

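For 8 genes the difference between P0 and E14.5 in striatal-type neurons was unlike that in Lhx6 or Sp8 cells, by edgeR's quasi-likelihood test of the interaction with Benjamini-Hochberg adjustment. Values are given for 7 of them, as log2 differences of the 2 age differences, each from 2 libraries per age. Erbb4 had 3.45 (adjusted p = 0.00037), Pcdh19 3.73 and Enc1 2.98. All 35 counts of Erbb4 in striatal-type neurons of P0 WT lay in cells with Foxp2 and no Foxp1, and the part of the makeup of cells at each age was not tested. Cnr1 had -4.98, Cntn2 -3.63, Ccnd2 -3.52 and Rbfox1 -3.34. Ccnd2 stood at 821 CPM in P0 KO and 20.4 CPM in P0 WT among the striatal-type neurons, and 24 of the 26 counts of P0 KO lay in 1 cell. Its values at E14.5 were 364 CPM in the library labelled E14.5 KO and 1188 CPM in E14.5 WT. DESeq2 called Erbb4 and Pcdh19. Without P0 WT, and likewise without the library labelled E14.5 KO, the test no longer called Cnr1, Cntn2, Rbfox1 and Enc1.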

How the results depend on the processing

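Against Lhx6 or Sp8 cells the test called 311 genes, against 184 with DESeq2, 167 with cells thinned to 1500 counts, 119 without the library block and 181 to 356 with 1 library left out. Among the named genes Mef2c reversed, at 1.25 against Sp8 cells alone. The named genes were chosen with their calls known, so a direction that holds under other settings is no sign of stability. Between ages 0 genes were called, against 5 with DESeq2, 37 without the low count filter, 5 after thinning, 3 at a striatal sum of 4 or more and 0 to 23 with 1 library left out. The interaction had 8 calls, against 2 with DESeq2, 28 without the filter and 9 to 32 with 1 library left out. The Isl1 or Ebf1 test had 18, against 4 with DESeq2, 6 without the filter, 7 after thinning and 1 to 34 with 1 library left out. Past 2-fold lay 125 genes between P0 KO and P0 WT, against 908 at a minimum of 10 counts, 40 at 60 and 18 after thinning, and 457 between the E14.5 libraries, against 1423, 154 and 253. After thinning the log2 ratio of shares was -0.28 at E14.5 and -3.84 for P0 KO over E14.5 KO. The causes were not tested, apart from the smaller number of genes measured after thinning or at a higher minimum. Where 1 library is left out of the age test, the lone library of an age is assumed to vary like the others. No paired analysis was possible because each group of age and genotype is 1 library, whose replicate number pairs it with nothing. The comparisons of cell classes had library as a block, and with the genotype label as a covariate the age test of edgeR called 0 genes, with 274 at an unadjusted p under 0.05. With 8 cells in P0 KO, 2 after thinning, small differences between the P0 libraries were not detectable at this depth.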
